A study of Mus musculus with 15 samples.

Results

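The genes described here encode the nuclear subunits of oxidative phosphorylation in mouse prostate organoid cells. They were taken by symbol, as all genes whose names start with Nduf followed by a, b, c, s or v, with Uqcr, with Cox followed by a digit from 4 to 8, with Atp5, or with Sdh followed by a, b, c or d. No measured value entered that choice. The pattern found 96 of the 21886 genes listed with RPKM (reads per kilobase of exon, scaled to library size) and 92 of the 14301 genes listed with counts. Of the 96, 36 belong to complex I, 4 to complex II, 8 to complex III, 20 to complex IV and 15 to complex V, which makes 83 subunit genes. The other 13 are assembly factors or related genes that share the name stems (Ndufaf, Sdhaf, Atp5s and Atp5sl) and are given apart. Ndufa4 and its relative Ndufa4l2 were counted in complex IV, where the Ndufa4 protein resides, and Cox7a2l, a supercomplex factor, was counted there too. Cox6a2, Cox7b2, Cox8b and Cox8c, tissue isoforms, were listed with RPKM only.

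The cells were prostate epithelial cells of C57BL/6 mice grown as organoids, and RNA was sequenced in 6 groups of 2 libraries. The first 4 groups came from 3-month-old mice that shared 1 background genotype. They were that background alone (control), with Setd2PC-/- (Setd2 null), with Ezh2PC-/- (Ezh2 null) or with both (double null). The other groups came from 2-month-old mice of another background genotype, alone (wild-type Ezh2) or with Ezh2K735R, a lysine-to-arginine form of Ezh2. A library of the first 4 groups was made from RNA pooled over 3 biological replicates, so p-values measure the spread between pools. For the other 2 groups no pool size is given. Setd2 is the methyltransferase that trimethylates lysine 36 of histone H3, and Ezh2 is the catalytic subunit of Polycomb repressive complex 2, which methylates lysine 27 of histone H3. An H3K27me3 chromatin immunoprecipitation of the series was not analysed here.

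Oxidative phosphorylation passes electrons from NADH (complex I) and succinate (complex II) through ubiquinone, complex III and cytochrome c to oxygen at complex IV, and complex V, the ATP synthase, uses the proton gradient so built to make ATP. Most subunits are nuclear genes that are transcribed in nearly every cell, while a few core subunits come from mitochondrial DNA and are outside the pattern. Normal prostate luminal cells are known for secreting citrate, which limits its oxidation, and the factors NRF1, GABPA, YY1 and ERR-alpha are textbook regulators of the nuclear subunit genes.

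The start regions of 5 genes are shown as chosen examples. Ndufa9 and Ndufb7 (complex I), Sdha (complex II) and Atp5g1 (complex V) rose without Ezh2 with p-values among the smallest of their complexes. Cox7a1 (complex IV) fell. Ndufb10 and Uqcr10 rose with smaller p-values than Ndufb7 and have windows that are not shown. Each is the RefSeq window of 300 bases on build GRCm38.p6 (mm10), 250 bases before to 50 after a start site, printed 5′ to 3′ on the gene's strand. Ndufa9 is chr6:126849095-126849394 on the minus strand, Ndufb7 is chr8:83566508-83566807 on the plus strand, Sdha is chr13:74350191-74350490 on the minus strand, Atp5g1 is chr11:96075582-96075881 on the minus strand and Cox7a1 is chr7:30183921-30184220 on the plus strand. Capitals mark matches on either strand to the NRF1 motif or to the letters CCGGAAG (ETS family, GABPA), AAGATGGC (YY1), TCAAGGTCA (ERR) or ACGTG (HIF).
Ndufa9: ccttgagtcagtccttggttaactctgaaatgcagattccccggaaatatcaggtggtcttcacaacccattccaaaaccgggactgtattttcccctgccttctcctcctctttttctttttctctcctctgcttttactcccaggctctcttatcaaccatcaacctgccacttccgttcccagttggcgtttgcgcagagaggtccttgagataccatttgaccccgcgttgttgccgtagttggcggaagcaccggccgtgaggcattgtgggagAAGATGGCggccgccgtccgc
Ndufb7: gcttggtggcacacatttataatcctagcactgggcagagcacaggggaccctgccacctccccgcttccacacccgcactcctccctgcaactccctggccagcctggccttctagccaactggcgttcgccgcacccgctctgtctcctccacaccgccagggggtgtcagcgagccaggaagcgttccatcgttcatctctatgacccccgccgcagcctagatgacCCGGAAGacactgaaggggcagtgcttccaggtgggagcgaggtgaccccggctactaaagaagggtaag
Sdha: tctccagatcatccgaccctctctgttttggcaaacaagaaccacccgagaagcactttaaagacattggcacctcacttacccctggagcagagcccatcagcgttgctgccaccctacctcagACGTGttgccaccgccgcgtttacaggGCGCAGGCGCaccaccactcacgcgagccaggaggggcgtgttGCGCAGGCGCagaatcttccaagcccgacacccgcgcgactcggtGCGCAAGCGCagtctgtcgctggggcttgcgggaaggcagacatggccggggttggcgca
Atp5g1: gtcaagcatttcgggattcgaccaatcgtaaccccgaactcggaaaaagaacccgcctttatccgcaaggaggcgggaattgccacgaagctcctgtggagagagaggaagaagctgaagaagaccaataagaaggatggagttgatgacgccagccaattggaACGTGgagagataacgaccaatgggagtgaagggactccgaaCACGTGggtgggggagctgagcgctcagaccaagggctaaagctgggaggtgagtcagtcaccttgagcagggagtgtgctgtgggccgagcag
Cox7a1: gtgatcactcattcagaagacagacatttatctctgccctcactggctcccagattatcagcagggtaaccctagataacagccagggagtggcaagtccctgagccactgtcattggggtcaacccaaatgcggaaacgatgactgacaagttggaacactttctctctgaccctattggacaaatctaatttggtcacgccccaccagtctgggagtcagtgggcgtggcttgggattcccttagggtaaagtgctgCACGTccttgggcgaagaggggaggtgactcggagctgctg
The Ndufa9 window holds the YY1 letters, the Ndufb7 window the ETS letters and the Sdha window the NRF1 letters at 3 places beside 1 HIF match. The Atp5g1 and Cox7a1 windows hold only HIF letters among the 5 motifs, and in Atp5g1 a CACGTG stretch matches on both strands.

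Windows were found for 80 of the 96 genes, and Ndufa4l2 was among those without 1. Of the 78 with a window that were tested in either table, 20 (25.6%) held the NRF1 letters, against 6.76% of the 17197 listed genes with a window. The ETS letters stood in 19 of the 78 (24.4%) against 12% of all, and the YY1 letters in 10 (12.8%) against 3.22%. By complex, the YY1 letters were in 7 of 32 complex I windows and in none of 12 complex IV windows, and the NRF1 letters were in 5 of 14 complex V windows and 1 of 12 complex IV windows. ERR letters were rare, in 2 of the 78 against 0.337% of all, namely Sdhd and Atp5g3. The short HIF letters were about as frequent in these genes (25.6%) as in all (20.9%). The 17197 genes were not limited to tested genes, and 4001 of all genes listed with RPKM were at 0 in every library. The shares thus compare expressed genes with expressed and silent genes together. These are matches of letters and not measured binding.

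Reads on listed genes, recovered from the RPKM, ranged from 29686052 to 54230805 per library, and count totals from 28831228 to 37482322. The 2 Setd2 null libraries had 8.75 and 10.3 RPKM of Setd2 against 17.0 and 16.1 in control, and the Ezh2 null libraries 13.8 and 11.6 RPKM of Ezh2 against 19.4 and 20.8. In the double null libraries Setd2 was at 8.99 and 7.54 RPKM and Ezh2 at 16.6 and 14.2, so both transcripts were lower than in control but present. The luminal markers together reached at least 2352 RPKM and the basal markers at least 2612 RPKM in each of the 8 libraries, and Pbsn, an androgen-driven luminal gene, was listed at 0 in control and Setd2 null. Markers of stroma summed to at most 34.4 RPKM, of immune cells to at most 39.6 and of endothelium to at most 3.25.

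In control organoids, complex V genes had the highest levels and assembly factors the lowest. Per kilobase, Atp5b, the catalytic beta subunit of ATP synthase, was highest, at 349 ± 3.5 RPKM (SD, n = 2), followed by Atp5a1, its alpha partner, at 243 ± 8.3 RPKM. Cox4i1, the common isoform of complex IV subunit 4, followed at 207 ± 1.2 RPKM and Cox8a at 188 ± 10 RPKM. The median gene of complex V was at 92.4 RPKM, of complex III at 69.5, of complex IV at 65.2, of complex II at 52.6 and of complex I at 33.8. The assembly factors had a median of 5.01 RPKM, from 1.17 for Ndufaf5 to 10.2 for Sdhaf2. Only complex IV had genes under 1 RPKM in control: Cox4i2, Cox6a2, Cox7b2, Cox8b and Cox8c, isoforms known from lung, muscle, testis or heart. These same 5 were too low to be tested (mean over the 8 libraries under 1 RPKM), which left 91 of the 96 genes.

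Summed over each complex, transcript levels were higher in all Ezh2 null and double null libraries than in all control and Setd2 null libraries. The control libraries held 5699 and 5375 RPKM over all 96 genes, Setd2 null libraries 6423 and 5140, Ezh2 null libraries 8850 and 9796, and double null libraries 8519 and 9630. The groups with and without Ezh2 did not overlap. As a share of all RPKM, the genes took 1.6% and 1.55% of control libraries, 1.7% and 1.47% of Setd2 null libraries, 2.31% and 2.45% of Ezh2 null libraries and 2.19% and 2.37% of double null libraries. The ratio of the Ezh2 null to the control mean was 1.82 for complex IV, 1.73 for complex I, 1.62 for complex V, 1.60 for complex III, 1.31 for complex II and 1.37 for the assembly factors. With median-ratio scaling these ratios were 1.6, 1.52, 1.43, 1.41, 1.15 and 1.21 in the same order. Quantile normalization gave 1.8 for complex IV and 1.2 for complex II. With it the assembly factor sums overlapped, at 85.9 and 99.1 RPKM in Ezh2 null and 87.3 and 78.9 in Setd2 null.

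**Figure D1:**
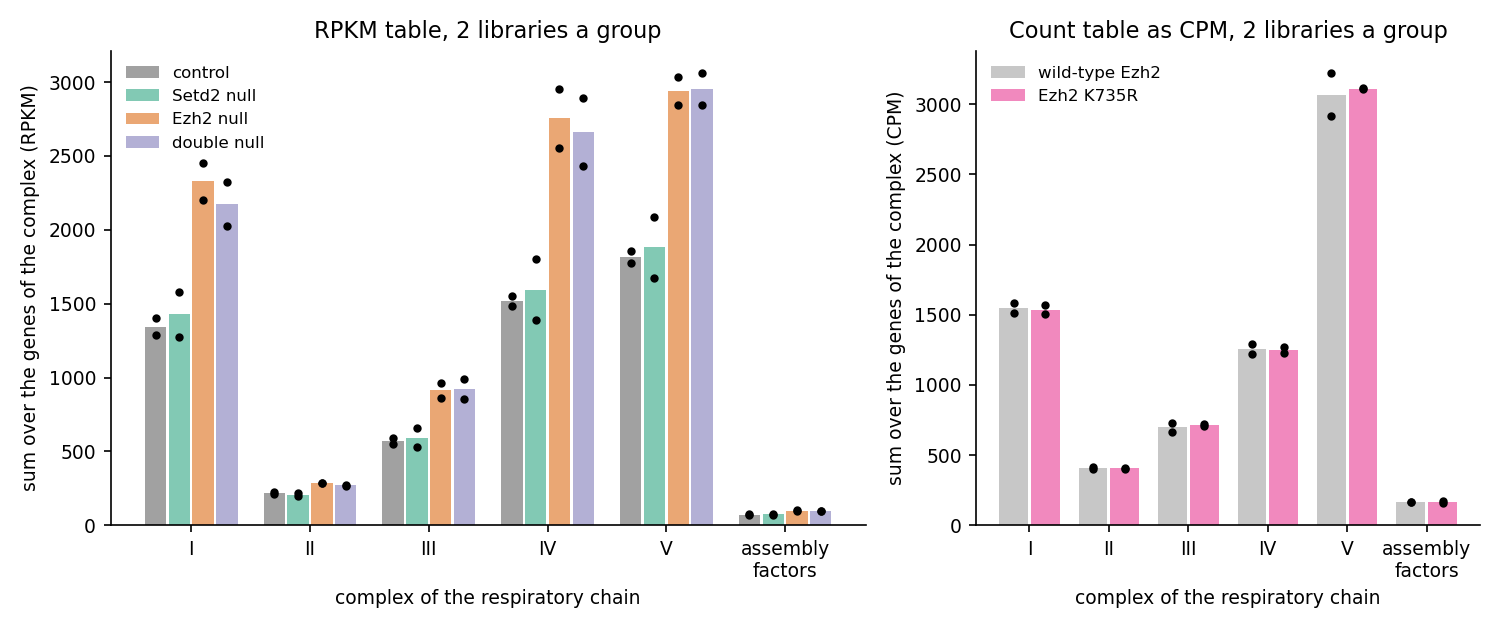
Sum over the genes of each complex in RPKM (left: control, Setd2 null, Ezh2 null, double null) or CPM, counts scaled to library size (right: wild-type Ezh2, Ezh2 K735R). Bars are means of 2 libraries and points the libraries; in each complex both libraries of Ezh2 null and of double null lie above all control and Setd2 null libraries, while wild-type Ezh2 and Ezh2 K735R libraries overlap.

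The effect of Ezh2 deletion was compared first against control. Most subunit genes of complexes I, III, IV and V rose, and 2 alternative subunits, Ndufa4l2 and Cox7a1, fell. Of the 91 genes tested, 65 were called higher (71.4%) and 2 lower by limma at a Benjamini-Hochberg adjusted p under 0.05, where 56.6% of all 11338 genes tested were called, 36.1% as higher and 20.5% as lower. The median difference in log2(RPKM + 1), the scale of all fold changes of these 4 groups, was 0.61 over the 91 genes and 0.18 over all genes. The libraries of the 2 groups did not overlap for any of the 67 called genes. The share without overlap over all genes was not counted, so this adds no support beyond the calls. In bulk RNA, a change in the cells present and a change in RNA per cell cannot be told apart.

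In complex I, which oxidises NADH, 31 of 36 genes rose and none fell. Ndufa9, a subunit near where its arms join (Entrez 66108, mm10 chr6:126821863-126849144), was at 35.8 and 30.6 RPKM in control and 107 and 107.9 in Ezh2 null. Both deletion libraries were above both control libraries, a difference of 1.67 ± 0.148 (SE) with an adjusted p of 1.35e-05 by limma. The membrane arm subunits Ndufb7 and Ndufb10 rose from 34.9 and 31.7 to 80.5 and 116 RPKM and from 41.8 and 37.6 to 94.9 and 103 RPKM. Their differences were 1.51 and 1.30, and that of Ndufa1, another membrane arm subunit, was 1.13. Among the core subunits, which carry out electron transfer, Ndufv1 rose by 1.07, Ndufs8 by 0.96, Ndufs7 by 0.92, Ndufs3 by 0.57, Ndufv2 by 0.55 and Ndufs1 by 0.51. Ndufs1 lost the call with quantile normalization, median-ratio scaling and edgeR (adjusted p = 0.0507, 0.0652 and 0.062), and Ndufv2 with the latter pair (0.0571 and 0.0608). Ndufs1 and Ndufv2 also lost it without control replicate 2 or Ezh2 null replicate 1 (0.0647 to 0.0983), and Ndufs3 without control replicate 1 (0.0669). The 5 genes that did not pass were Ndufa6 (-0.16), Ndufv3 (-0.05), Ndufs4 (0.05), Ndufb3 (0.18) and Ndufc1 (0.42).

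Complex II moved least among the complexes. Sdha, the flavoprotein that oxidises succinate, rose from 52.3 and 48.0 to 83.9 and 90.6 RPKM, a difference of 0.79 ± 0.129 (adjusted p = 0.000677, limma). Its iron-sulfur partner Sdhb was at 41.9 and 41.0 RPKM in control and 55.7 and 55.9 in Ezh2 null, a difference of 0.42 that passed at an adjusted p of 0.0257 but missed it under 7 of 16 alternatives (0.163 with median-ratio scaling). The membrane anchors did not pass, with Sdhd at 0.33 and Sdhc at 0.04.

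In complex III 5 of 8 genes rose. The small subunits Uqcr10 and Uqcr11 rose by 1.38 and 1.43, from 48.9 ± 1.8 to 129 ± 18 RPKM and from 67.8 ± 6.6 to 187 ± 49 RPKM (SD, n = 2). The core protein Uqcrc1 rose by 0.74 and Uqcrfs1, the Rieske iron-sulfur protein, by 0.56. The second core protein, Uqcrc2, was at 73.9 and 68.3 RPKM in control and 84.2 and 62.8 in Ezh2 null. Its libraries overlapped, so the 2 core proteins, which pair in the complex, did not show the same call. Whether their responses differ was not tested.

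In complex IV 9 of 15 genes tested rose and 2 fell. Among the isoforms common to most tissues, Cox6a1 rose from 158 and 153 to 359 and 581 RPKM, Cox4i1 from 208 and 206 to 404 and 542, and Cox8a from 196 and 181 to 355 and 416. Their differences were 1.55, 1.17 and 1.02, and Cox5b, which binds zinc, rose by 1.41. Cox6b1 rose by 0.52 and Cox7a2l by 0.40, both losing the call under some alternatives (adjusted p up to 0.0987 and 0.171), and Cox7a2 (0.41), Cox7b (0.31) and Cox7c (0.34) did not pass. The alternative isoform Cox6b2, known from testis, was at 2.62 and 2.29 RPKM in control and 3.00 and 3.48 in Ezh2 null, a difference of 0.29 that did not pass.

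The 2 genes that fell are alternative subunits of complex IV. Ndufa4l2, a relative of Ndufa4 known as a hypoxia-inducible gene, was at 32.6 and 33.8 RPKM in control and 4.84 and 7.08 in Ezh2 null. The groups were far apart, with a difference of -2.32 ± 0.209 (adjusted p = 1.51e-05, limma). Its common counterpart Ndufa4 rose by 0.83, from 123 ± 13 to 219 ± 13 RPKM. Cox7a1, the heart and muscle isoform of subunit 7a (Entrez 12865, mm10 chr7:30184171-30186030), was at 8.02 and 8.44 RPKM in control and 1.87 and 3.10 in Ezh2 null, a difference of -1.43 ± 0.259 (adjusted p = 0.00126). The muscle marker list fell beside it, from sums of 150.7 and 156.8 RPKM in control to between 3.38 and 5.65 in Ezh2 null, nearly all from Tnnt2, the heart troponin T gene (153 ± 3.7 to 3.79 ± 1.4 RPKM). Its defining markers Des and Actc1 were at or near 0 in all 8 libraries. Capns1, the gene next to Cox7a1 at a gap of 911 bases, was also called lower (-0.44, adjusted p = 0.0166).

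In complex V 13 of 15 genes rose. The largest difference was that of Atp5g1 (Entrez 11951, mm10 chr11:96072793-96075694), at 37.8 and 30.3 RPKM in control and 89.7 and 113 in Ezh2 null, 1.55 ± 0.183 (adjusted p = 8.68e-05, limma). Atp5g1, Atp5g2 and Atp5g3 are separate genes for the same mature c subunit of the proton-conducting ring. Atp5g2 rose by 0.69, from 148 ± 0.24 to 242 ± 47 RPKM, and Atp5g3 by 0.76, from 187 ± 1.5 to 317 ± 10 RPKM. Not every alternative kept the Atp5g2 call, and its difference was 0.49 without Ezh2 null replicate 2. Atp5g1 was thus the lowest of the trio in control and in Ezh2 null, with the largest log2 difference. The catalytic pair Atp5b and Atp5a1 rose by 0.77 and 0.65, to 595 ± 34 and 381 ± 5.5 RPKM, and Atp5c1 (0.13) and Atp5k (0.50) did not pass.

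Of the 13 assembly factors and related genes, 5 rose (38.5%, near the 36.1% of all genes) and none fell. Ndufaf2 and Ndufaf4, which help build complex I, rose by 0.98 and 0.81, and Sdhaf1, which helps insert iron-sulfur clusters into Sdhb, rose by 1.03. Ndufaf7, a methyltransferase that acts in complex I assembly, rose by 0.48. Its call was lost with either other scaling (adjusted p = 0.0732 with quantile normalization, limma) and with edgeR on recovered reads (0.0899), among other alternatives. Ndufaf1, Sdhaf2 and Sdhaf3 had differences of 0.02, 0.09 and -0.07.

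**Figure D2:**
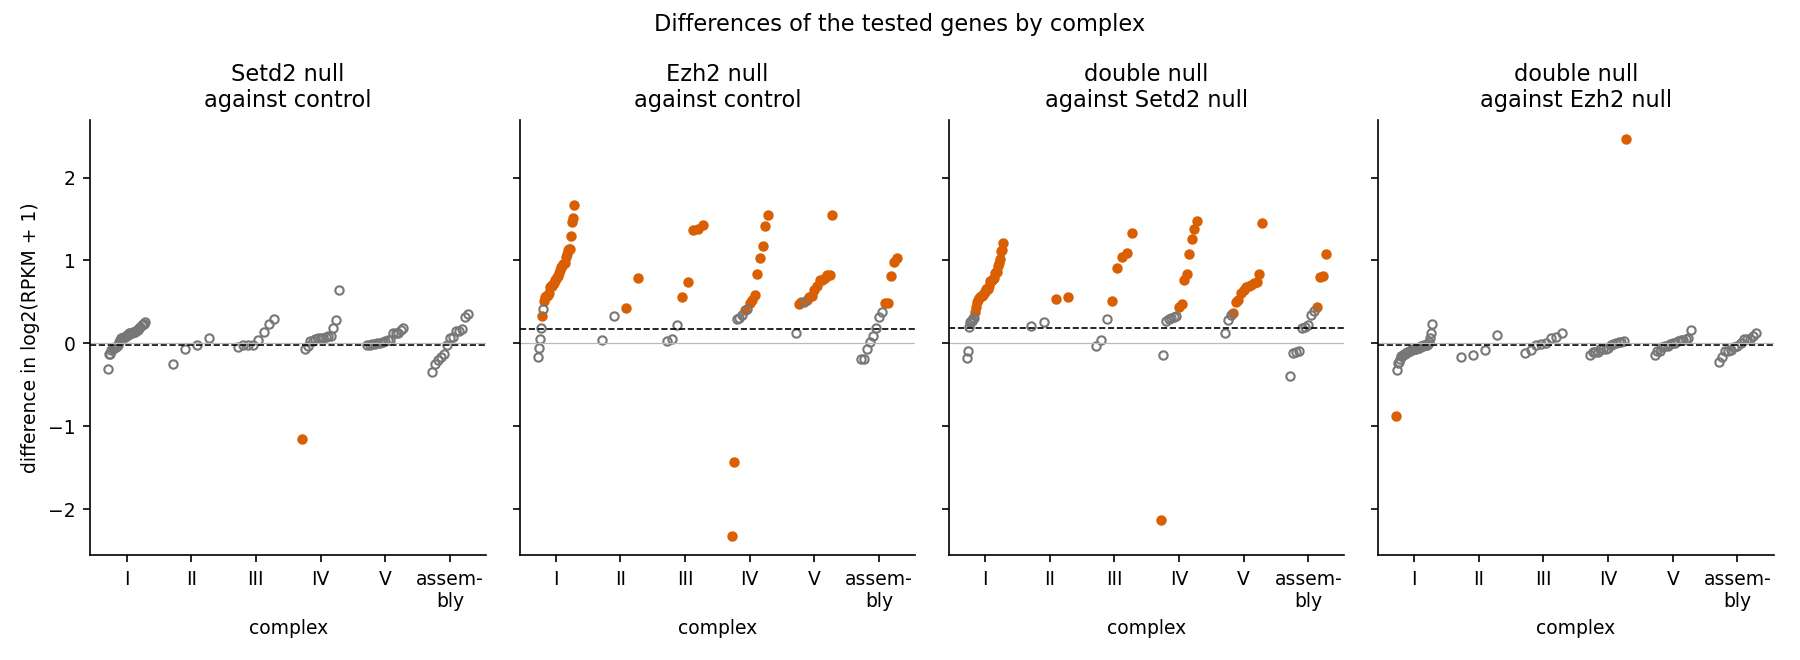
Difference in log2(RPKM + 1) for each of the 91 tested genes, by complex and in order of size within a complex, for 4 comparisons; filled orange points passed the test, open points did not, and the dashed line is the median of all genes tested. Ezh2 deletion called 65 genes higher with Setd2 and 59 without it, and in the rightmost comparison Ndufa4l2 (2.46) and Ndufa9 (-0.87) stand alone.

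The sizes of these differences depend on how libraries are scaled and move with transcript length. RPKM puts all genes' median difference at 0.18, and 63.8% of called genes were higher. Quantile normalization put the median at 0.01 with 50.1% higher, and then 58 of the 91 genes were higher and 4 lower, Atp5s and Atp5sl joining those that fell. Median-ratio scaling gave 51 higher and 3 lower. Of the 65 genes called higher, 57 remained so with quantile normalization and 51 with median-ratio scaling. Of all 67 calls, 47 held in each alternative run that tested the gene. The filter of 5 RPKM left some of these untested, such as Ndufaf4.

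The subunit transcripts are short, with a median exon length of 853 bases against 3401 for all genes tested. Short genes rose more often in general. Up to 1000 bases, 39 of 51 respiratory chain genes were higher (76.5%) against 49.4% of 583 other genes, with median differences of 0.76 and 0.48. Between 1000 and 2000 bases the shares were 67.9% of 28 and 46.1% of 1969, and between 2000 and 5000 bases 58.3% of 12 and 37.2% of 5449. Within each length class the respiratory chain genes had the higher share and the higher median, by description and without a test. The part of length in the rise was not tested.

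**Figure D3:**
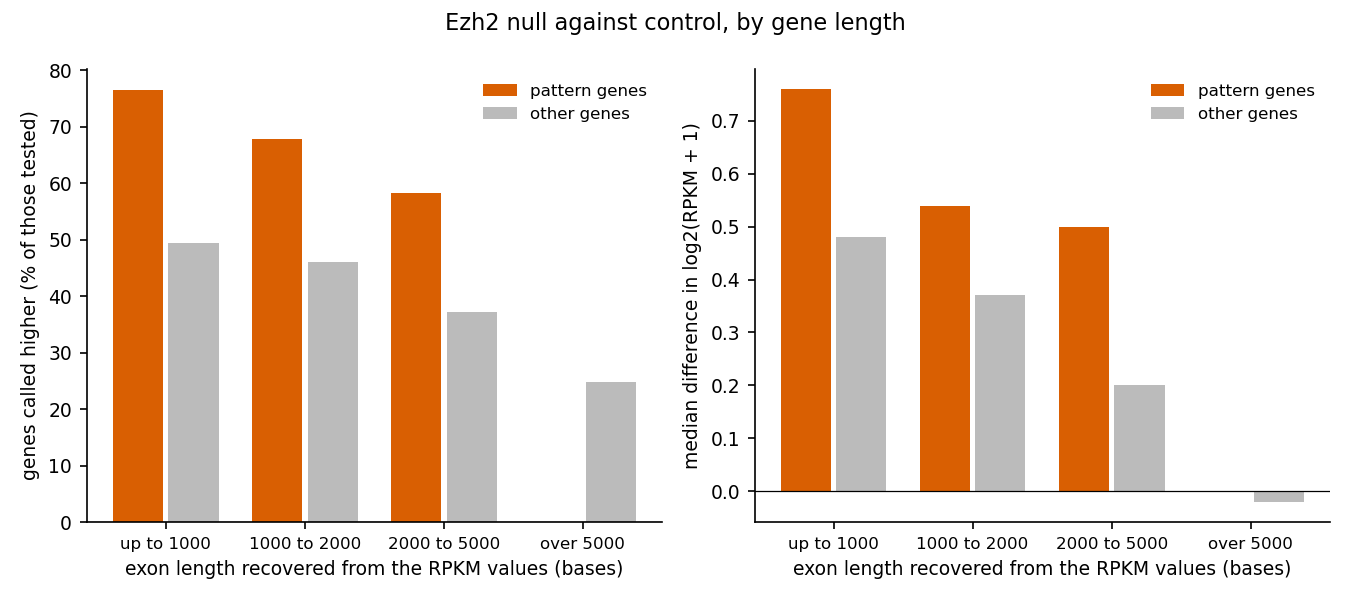
Share of tested genes called higher (left, %) and median difference in log2(RPKM + 1) (right) in Ezh2 null against control, by exon length in bases. Respiratory chain genes are orange and all other genes grey; both decline with length, the other genes from 49.4% to 24.8%, and no respiratory chain gene is longer than 5000 bases.

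Other measures moved with the same comparison. The proliferation markers summed to 170.3 and 181.9 RPKM in control and to between 381.9 and 387.4 in Ezh2 null, with 7 of 8 called higher, and Mcm2 and Mcm5, helicase subunits of DNA replication, rose by 2.11 and 2.03. The luminal sum went from at most 2475 to at least 3494 RPKM, with 7 of 10 markers called higher and 1 lower. The basal sum went from at most 2827 to at least 3825 RPKM, but 3 of its 9 markers were called higher and 3 lower, with a median difference of -0.24. Seminal vesicle and urothelium markers went from at most 32.8 to at least 201 RPKM, with 5 of 6 tested called higher and 1 lower. Stroma markers went from at most 10.6 to at least 32.8 RPKM, with 4 of 5 tested called higher and 1 lower, while Lum, Pdgfra, Pdgfrb and Postn were below 1 RPKM in both Ezh2 null libraries. Depth was also higher, with 46915669 to 54230805 recovered reads in Ezh2 null against 29686052 and 29789199 in control. The part of cell make-up, growth and depth in the result was not tested.

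Ezh2 deletion was next compared in cells that also lacked Setd2, double null against Setd2 null, which shares no library with the first comparison. The 2 comparisons are still not taken as independent. Replicate 2 minus replicate 1 differences of Ezh2 null and double null correlated at 0.93 over all genes. Other pairs of the 4 groups correlated at 0.11 to 0.36. Ezh2 null and double null also had deeper libraries, with at least 46915669 recovered reads against at most 34880880 in control and Setd2 null. Markers moved here too, with 7 of 8 proliferation markers called higher in double null than in Setd2 null. Of 10 luminal markers 7 were called higher and 2 lower, and of 9 basal markers 5 higher and 3 lower. Of 6 seminal vesicle and urothelium markers tested, 5 were called higher and 1 lower. The part of these in the shared calls was not tested. Most subunit genes again rose, and Cox7a1 fell. Of 91 genes, 59 rose (64.8%) and 1 fell, where 55% of all genes were called, 35.6% higher and 19.4% lower, with medians of 0.56 over the 91 genes and 0.18 over all. By complex, 28 of 36 genes rose in complex I, 2 of 4 in II, 5 of 8 in III, 8 of 15 in IV, 12 of 15 in V and 4 of 13 assembly factors. In both comparisons 57 genes were called higher, 87.7% of the 65 and 96.6% of the 59. Over all genes tested 3477 were higher in both, 84.9% and 86.1% of those called higher in each. Only the second called Cox6b2 and Ndufaf5 higher, and only the first Atp5j, Cox5a, Cox6c, Ndufa2, Ndufaf3, Ndufaf7, Ndufb4 and Ndufs5. None of these 10 passed the test of the difference between the comparisons, given below as an interaction.

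The largest rise was that of Cox6b2, by 1.48 ± 0.22 (adjusted p = 0.000401, limma), from 0.295 and 0.863 RPKM in Setd2 null to 2.51 and 4.31 in double null. Atp5g1 rose by 1.46, from 37.4 and 30.5 to 84.2 and 106 RPKM. Uqcr11 rose by 1.33, Cox6a1 by 1.38, Cox5b by 1.26, Ndufa1 by 1.11, Uqcr10 by 1.09 and Cox4i1 by 1.08, each with both double null libraries above both Setd2 null libraries. Among other subunits Ndufv1 rose by 0.86, Uqcrc1 by 0.91, Uqcrfs1 by 0.51, Atp5b by 0.73, Atp5a1 by 0.69 and Sdha by 0.56, and Ndufaf4 led the assembly factors at 1.07. The gene that fell was Cox7a1, from 15.1 and 11.8 to 1.48 and 3.34 RPKM, by 2.13 on the log2 scale (adjusted p = 0.000114). Ndufa4l2, at 35.6 and 46.3 RPKM in Setd2 null and 30.9 and 43.8 in double null, overlapped between the groups (-0.14, adjusted p = 0.594). Of the 60 calls, 35 held in each alternative run that tested the gene, and Cox6b2 among them was untested under the filter of 5 RPKM.

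Double null against control uses the control libraries of the first comparison and is given beside it only. It called 64 of 91 genes higher and 2 lower, where 54.2% of all genes were called, 34.2% higher and 20% lower. Cox7a1 (-1.49) and Atp5sl (-0.36) were the 2 that were lower, and Ndufa4l2 was not called (0.14). Without control replicate 2 the count was 43 in place of 66.

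**Figure D4:**
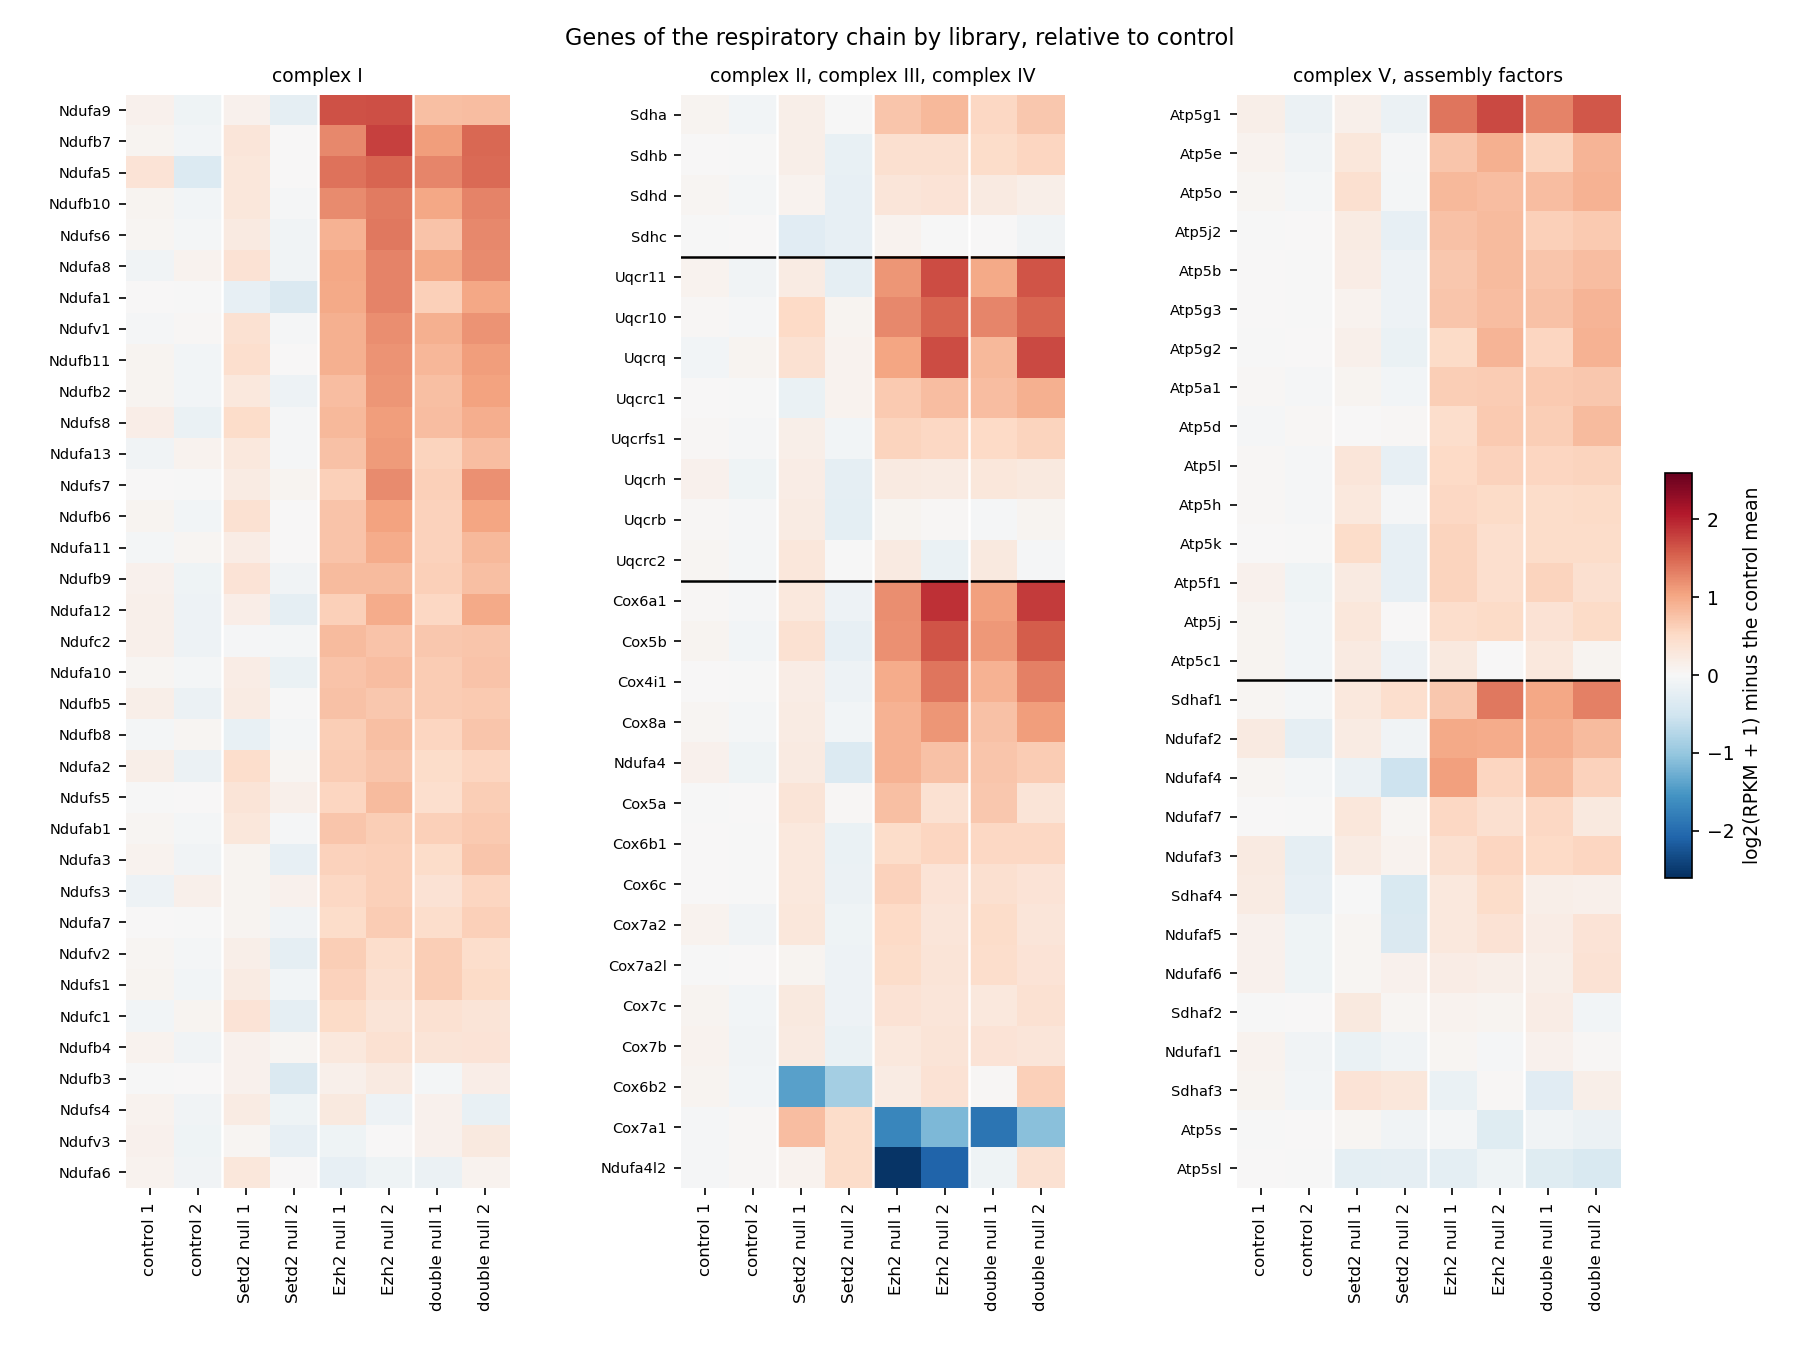
Tested genes (rows, by complex) in each library of the first 4 groups (columns), as log2(RPKM + 1) minus the mean of the 2 control libraries; red is higher and blue lower, on a scale from -2.6 to 2.6. Most rows are red in the Ezh2 null and double null columns, Cox7a1 is blue in both, Cox6b2 is blue only under Setd2 null and Ndufa4l2 only under Ezh2 null.

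After deletion of Setd2 alone, 1 of these genes passed the test, the low-level isoform Cox6b2. None of the 91 was called higher and 1 lower by limma, where 1.07% of all genes were called, 0.379% higher and 0.688% lower. At an unadjusted p under 0.05 there were 2 of the 91 genes and 1313 of all genes, and edgeR on the recovered reads called none of the 91. The median difference was 0.07 over the 91 genes and -0.02 over all. The sum of each complex overlapped between the groups, as for complex II at 223 and 214 RPKM in control and 219 and 196 in Setd2 null.

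The 1 call was Cox6b2 (Entrez 333182, mm10 chr7:4751792-4753094), at 2.62 and 2.29 RPKM in control and 0.295 and 0.863 in Setd2 null. Both Setd2 null libraries were below both control libraries, a difference of -1.15 ± 0.22 (adjusted p = 0.0463). It rests on few reads, 49 and 43 in control and 6 and 19 in Setd2 null. The call was lost without any 1 of the 4 libraries compared (adjusted p from 0.0586 to 0.309) and with either other scaling, a pseudocount of 0.1 or edgeR (0.14). Cox7a1 was at 8.02 and 8.44 RPKM in control and 15.1 and 11.8 in Setd2 null, without overlap, and did not pass (0.64, adjusted p = 0.374). Atp5b, the gene of highest level, overlapped between the groups, at 352 and 347 RPKM against 397 and 320.

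After deletion of Setd2 in cells that already lacked Ezh2, 2 of the 91 genes were called, Ndufa4l2 and Ndufa9, in opposite directions. Of all genes 6.49% were called, 3.79% higher and 2.7% lower. At an unadjusted p under 0.05 there were likewise 2 of the 91. The test was unpaired, though replicate 2 minus replicate 1 differences of these 2 groups correlated at 0.93 over all genes. The replicate block fitted 1 effect for all 4 groups, so no run modelled a shift shared by these 2 alone. The part of such a shift in the small count was not tested. Ndufa4l2 (Entrez 407790, mm10 chr10:127514939-127517154) was at 4.84 and 7.08 RPKM in Ezh2 null and at 30.9 and 43.8 in double null. Both double null libraries were far above both Ezh2 null libraries, a difference of 2.46 ± 0.209 (adjusted p = 0.000124, limma). Ndufa9 was at 107 and 107.9 RPKM in Ezh2 null and at 57.8 and 58.6 in double null, still above control, a difference of -0.87 ± 0.148 (adjusted p = 0.00701). Both calls held under each alternative run. The other 89 genes differed by between -0.32 (Ndufa1) and 0.24 (Ndufv3), and Sdha, Uqcrc1 and Atp5d, those of smallest p in their complexes, were at -0.17, 0.13 and 0.16.

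Whether the effect of Ezh2 deletion depended on Setd2 was tested as an interaction, where 2.59% of all genes were called, 1.69% higher and 0.9% lower. Of the 91 genes 1 passed, Ndufa4l2: Ezh2 deletion lowered it by 2.32 with Setd2 present and its difference was -0.14 with Setd2 absent, an interaction of 2.18 ± 0.296 (adjusted p = 0.00442, limma, from 0.00153 to 0.034 over the alternatives). For Ndufa9 the difference was 1.67 with Setd2 and 0.86 without, an interaction of -0.81 ± 0.21 that did not pass (adjusted p = 0.0971) and passed at 0.0395 without Setd2 null replicate 2. For Cox6b2 the differences were 0.29 and 1.48, an interaction of 1.18 ± 0.311 (adjusted p = 0.106, and 0.0243 without double null replicate 1), and for Cox7a1 -1.43 and -2.13, an interaction of -0.70 (adjusted p = 0.613). The median interaction over the 91 genes was -0.09 and over all genes -0.01.

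**Figure D5:**
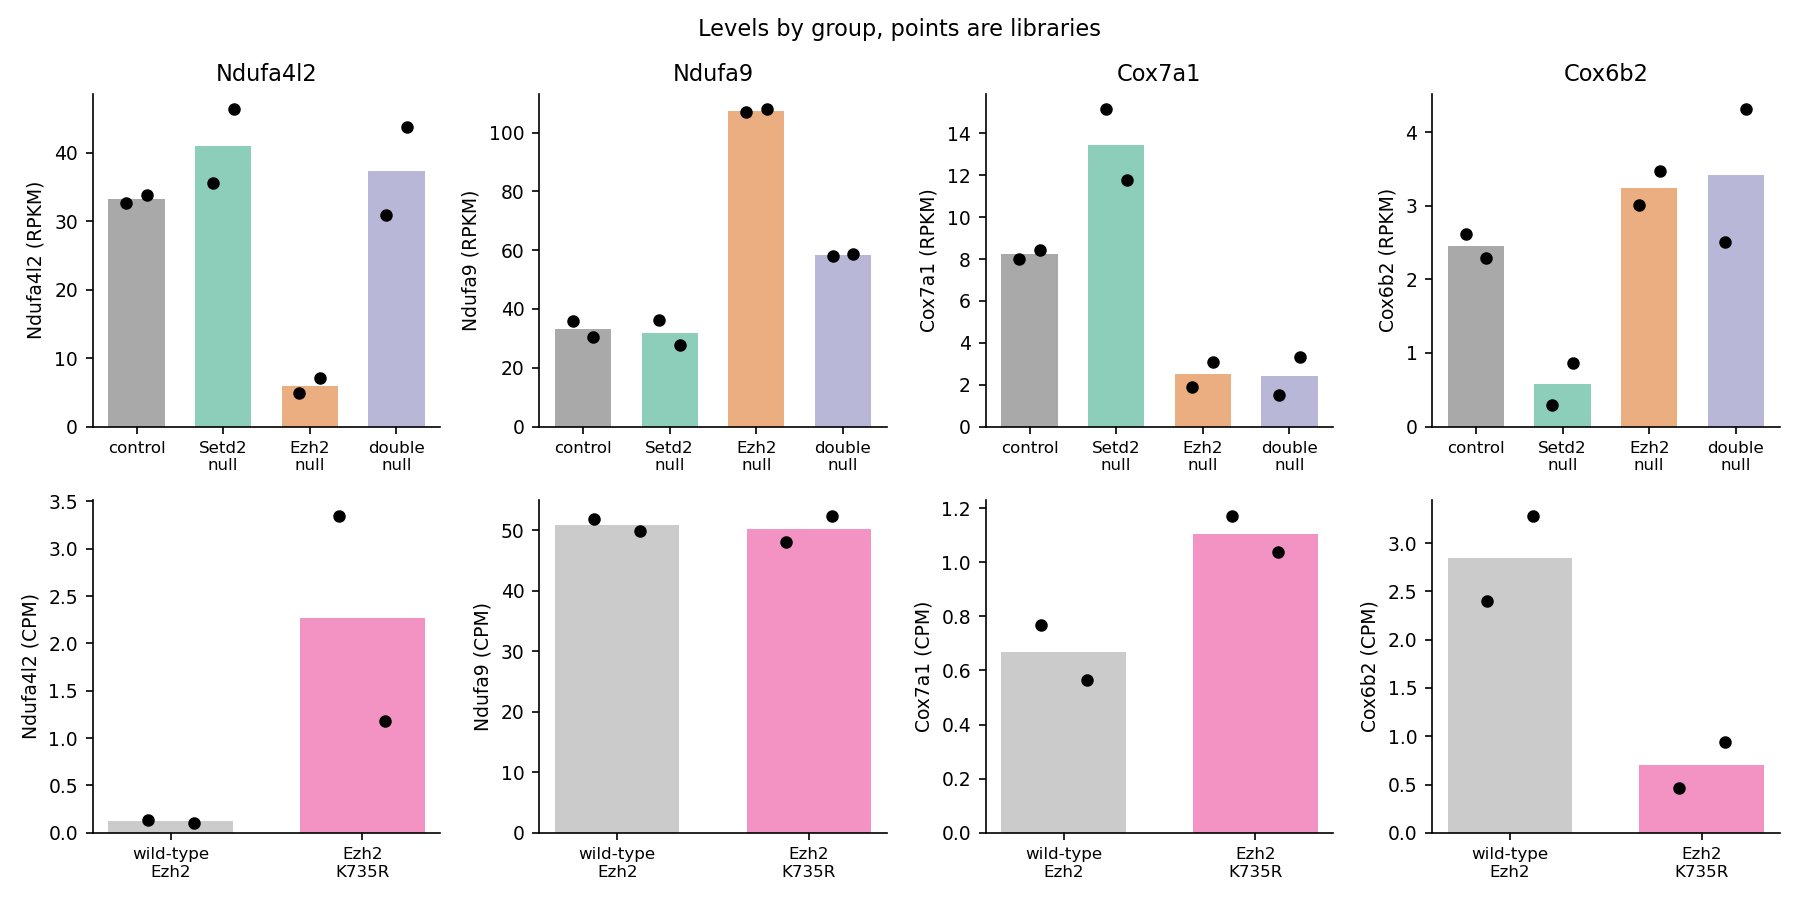
Levels of Ndufa4l2, Ndufa9, Cox7a1 and Cox6b2 in RPKM in the first 4 groups (top) and in CPM in wild-type Ezh2 and Ezh2 K735R (bottom). Bars are means of 2 libraries and points the libraries. Among the first 4 groups, Ndufa4l2 is low only in Ezh2 null (4.84 and 7.08 RPKM) and Ndufa9 is highest there (107 and 107.9 RPKM). Among the same groups, Cox7a1 is low in both groups without Ezh2 and Cox6b2 in Setd2 null.

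The neighbourhood of Ndufa4l2 was examined because its gene model meets another. Its last 32 bases overlap Shmt2, the mitochondrial serine hydroxymethyltransferase, on the opposite strand, and whether the counting used strand is not given in the sources used here. For Shmt2 the control libraries were at 35.0 and 35.7 RPKM, Setd2 null libraries at 37.2 and 43.7, Ezh2 null libraries at 48.8 and 56.7, and double null libraries at 63.5 and 76.1. In Ezh2 null both its libraries were above both control libraries. Stac3, on the other side, stayed between 0.333 and 0.679 RPKM. Ndufa9 has Kcna6 and Akap3 as neighbours, both at or near 0 in all 8 libraries. In all, 12 of the 96 genes overlap a gene on the opposite strand, among them Atp5d with Cbarp over 1368 bases, Atp5f1 with Wdr77 over 751 and Atp5j with Gabpa over 701, and reads in those stretches cannot be told apart without strand.

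Genes that work beside the chain were counted from lists. In Ezh2 null against control, where 36.1% of all genes were higher, 5 of 9 electron carriers and subunits outside the name pattern rose and none fell. Etfb, which passes electrons from fatty acid oxidation to ubiquinone, rose by 1.90 from 23.1 ± 1.1 to 89.1 ± 13 RPKM, Cyc1 of complex III by 1.14 and Cycs, cytochrome c, by 0.94. Other assembly factors rose in 24 of 37 cases and fell in 1, led by Cox10, which makes heme for complex IV (1.35), and Ecsit, a complex I assembly factor (1.27). Citric acid cycle enzymes rose in 9 of 13 cases, such as Ogdh (1.02), and mitochondrial ribosomal proteins in 47 of 77, such as Mrps26 (1.61) and Mrpl16 (1.38). Carriers and import proteins rose in 10 of 18 cases, with Tomm40, the outer membrane import pore, at 1.68 and the phosphate carrier Slc25a3 at 1.01. None of the last 3 lists had a gene that fell.

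Among 16 regulators of mitochondrial gene expression, 6 rose and 1 fell in Ezh2 null against control, where 36.1% of all genes were called higher. Their count is thus near that of all genes, as is their median of 0.15. Myc rose from 26.3 and 24.8 RPKM to 58.2 and 61.9 (adjusted p = 6.29e-05), Esrra, the gene of ERR-alpha, from 14.2 ± 2.3 to 34.9 ± 11 (1.22) and Pprc1, a PGC-1 related coactivator, from 4.91 ± 0.44 to 10.3 ± 0.16 (0.94). Nrf1 and Tfam, the mitochondrial transcription factor, did not pass (-0.01 and 0.16). In double null against Setd2 null, the lists had 4 of 9, 19 of 37, 7 of 13, 43 of 77, 8 of 18 and 7 of 16 genes higher in the same order, where 35.6% of all genes were higher. Of the same lists, 2 mitochondrial ribosomal proteins, 1 other assembly factor and 1 regulator were lower. In Setd2 null against control limma called 0 of the 170 genes of the 6 lists, with 2 at an unadjusted p under 0.05 and 0 called by edgeR on recovered reads. In Ezh2 K735R against wild-type Ezh2 edgeR called 0 of 172, with 2 at an unadjusted p under 0.05 and 0 called by DESeq2.

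The point mutant was compared on the other background, and levels there are CPM from counts. The sums of each complex overlapped between the groups. Complex I summed to 1583 and 1510 CPM in wild-type Ezh2 and 1506 and 1569 in Ezh2 K735R, and complex V to 3220 and 2919 against 3115 and 3106. None of the 92 genes was called by edgeR's quasi-likelihood test, where 0.00757% of all 13203 genes were called, which is 1 gene. At an unadjusted p under 0.05 there were 3 of the 92 genes and 1220 of all, and DESeq2 called 1 of the 92, with 181 of all genes higher and 108 lower. The median log2 difference was 0.00 over the 92 genes and -0.01 over all. The wild-type Ezh2 libraries were unlike each other in their markers. Proliferation markers summed to 398.3 CPM in the lower and 1105 in the higher of the pair, against 678.1 and 858.6 in Ezh2 K735R. Luminal markers summed to 4307 and 6485 CPM against 5507 and 6367. The part of this spread in the small number of calls was not tested.

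The 3 genes were Ndufa4l2, Cox6b2 and Ndufv3. Ndufa4l2 had 4 and 4 counts in wild-type Ezh2 and 100 and 34 in Ezh2 K735R, which is 0.133 and 0.108 CPM against 3.35 and 1.18. The groups did not overlap; edgeR gave an adjusted p of 0.285 and DESeq2 of 0.00138. Without wild-type replicate 1 or 2 edgeR gave 0.047 and 0.0324. Cox6b2 had 72 and 122 counts in wild-type Ezh2 and 14 and 27 in Ezh2 K735R, a log2 difference of -2.02 (adjusted p = 0.414). Ndufv3, at 25.6 and 27.3 CPM against 33.2 and 36.5, differed by 0.40 (adjusted p = 0.448). Cox7a1, at 0.767 and 0.566 CPM against 1.17 and 1.04, did not overlap and did not pass. Ndufa9, at 51.8 and 49.8 against 48.1 and 52.4, overlapped.

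Within groups, a majority of these genes shifted in the same direction between the 2 libraries, most clearly in Setd2 null. In Setd2 null, 11 of 91 genes were higher in library 2 than in library 1, with a median difference of -0.31, and in control 20 of 91 (-0.11). In Ezh2 null 60 and in double null 65 of 91 were higher in library 2 (0.09 and 0.13). In Ezh2 null, Cox6a1 was at 359 and 581 RPKM and Uqcrq at 44.9 and 71.8. Others moved the opposite way there, such as Cox5a at 131 and 100 RPKM and Uqcrc2 at 84.2 and 62.8. The share of all genes higher in library 2 was not counted. Over all genes the median shift was at most 0.02 in size in each group.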

How the data were processed

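RNA was sequenced in 12 libraries of prostate organoid cells, 2 in each of 6 groups, with reads of 150 bases per the labels' protocols. The authors deposited RPKM values for the first 4 groups and a table whose whole numbers were taken as read counts for the other 2, where the deposited counts are not normalized. Per the submitters' processing notes, Bowtie, RSEM, BWA and SICER were used in the series and the build was mm10. Their versions, the division of shared reads and strandedness are not stated there. RPKM were whole multiples of 1 read in 13744 of 13748 genes (99.97%) within 0.01 reads, which gave reads and exon lengths.

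Log2(RPKM + 1) of the 11338 genes whose mean reached 1 RPKM entered 1 limma 3.58.1 model of 4 groups with trended, robust moderation. Counts entered edgeR 4.0.16 (TMM, filterByExpr, quasi-likelihood test, 13203 genes), and CPM were computed from them with TMM-scaled library sizes. P-values were two-sided, adjusted over all genes tested by the Benjamini-Hochberg method and called at 0.05 in R 4.3.3. Scripts were checked on simulated data.

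Alternatives were a pseudocount of 0.1, quantile normalization, no filter on low values, stricter filters (mean 5 RPKM or 10 counts), median-ratio scaling, edgeR on recovered reads, DESeq2 1.42.0, limma on log2 CPM, no TMM factors, only the groups compared, a replicate block and leaving out each library. Named with values were, per complex, the up to 4 called genes of smallest p without overlap, isoforms with their partners and core subunits. Where none was called, the gene of smallest p was named. Of each other list up to 2 genes of smallest p were named, with Cyc1, Cycs, Esrra, Tfam, Nrf1 and Myc whatever their p. Some genes that did not pass are also named by complex. The genes, lists and tests were chosen with earlier results of these data known. Some items, among them the allele that sets the background genotype, are not reported here.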

Additional observations from a re-analysis of the deposited data

Results flagged for a closer look

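The effect of Ezh2 deletion on Ndufa4l2 differed between cells with and without Setd2. The interaction, the effect with Setd2 deleted minus the effect with Setd2 intact, was 2.18 ± 0.296 (SE) on the log2(RPKM + 1) scale (adjusted p = 0.00442, limma). Both Ezh2 null libraries (4.84 and 7.08 RPKM) were below all libraries of the other 3 groups (30.9 to 46.3 RPKM). Shmt2 overlaps its last 32 bases on the opposite strand, and the part of those shared bases in the interaction was not tested.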

How the results depend on the processing

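Each count of called genes was recomputed under every alternative. The filter of 5 RPKM leaves out Cox6b2, at a mean of 2.42 RPKM over the 8 libraries, so its call drops there without a test. For Setd2 null against control the count of 1 fell to 0 with a pseudocount of 0.1, quantile normalization, no filter on low values, the stricter filter of 5 RPKM, median-ratio scaling, edgeR on recovered reads and only the groups compared, and was 0 to 1 when a library was left out, with 0 without any one of the 4 control and Setd2 null libraries. For double null against control the count of 66 was 43 to 72 when a library was left out, 43 being without control replicate 2. For the interaction the count of 1 was 1 to 2 when a library was left out, with 2 without Setd2 null replicate 2 (Ndufa9 joined) or double null replicate 1 (Cox6b2 joined). For Ezh2 K735R the count of 0 was 1 with DESeq2 and 0 to 1 when a library was left out, with 1 (Ndufa4l2) without either wild-type Ezh2 library. Left-out libraries gave 48 to 73 against 67 in Ezh2 null against control, 41 to 67 against 60 in double null against Setd2 null and 2 throughout in double null against Ezh2 null. With 1 library left in a group, its spread is assumed to be that of the other groups. Sdhd in Ezh2 K735R, at -0.023, turned to 0.015 without wild-type Ezh2 replicate 2 and 0.068 without Ezh2 K735R replicate 1, within a leave-one-out range of -0.12 to 0.068. Of 111 named results that passed, 76 stayed on the same side of the threshold under each alternative that tested the gene.

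Replicate numbers give no pairing that the labels state. Between groups, the difference of replicate 2 minus replicate 1 correlated across genes at 0.11 to 0.93, highest between Ezh2 null and double null, and at 0.18 between wild-type Ezh2 and Ezh2 K735R. With the replicate block, the counts were 1 for Setd2 null and 71 for Ezh2 null, each against control; 63, 2 and 70 for double null against Setd2 null, Ezh2 null and control; 2 for the interaction; and 0 for Ezh2 K735R. The interaction's second gene was then Ndufa9 (adjusted p = 0.0444, limma). The values of Cox6b2 rest on 6 to 135 reads a library.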
